A study of Homo sapiens with 9 samples.

Results

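Selenoproteins carry selenocysteine, an amino acid inserted at a UGA codon that would otherwise end translation. The genes described here are SELENOP, GPX1, GPX2, GPX3, GPX4, TXNRD1, SELENOM, SELENOW and SELENOH, which encode selenoproteins, and SELENBP1, which encodes a selenium-binding protein without selenocysteine. Every probe set annotated to exactly 1 of these 10 symbols was taken, which gave 21 of the 41097 probe sets that name a single gene. The genes were chosen by their measured signals, above all the low SELENOP and SELENBP1 signals in cells labelled ERBB2. The values of those 2 genes are therefore given as a description with no test. The same holds for all values of the 10 genes in cells labelled ERBB2 against vector cells. Other comparisons reuse these arrays, so their p-values for the remaining genes are not independent of that choice.

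The arrays measured RNA of MCF10A, a line of human breast epithelial cells that is immortal, does not form tumors and needs EGF to grow. The first of 3 groups held cells infected with a pBabe-ErbB2 retrovirus (ERBB2, a receptor tyrosine kinase of the EGF receptor family), the second cells with the empty pBabe retrovirus given 50 ng/ml EGF for 2 h before harvest, and the third cells with the empty retrovirus and no EGF. Routine culture used 20 ng/ml EGF with serum from horse at 5%, and before harvest all cells were moved to medium with 2% horse serum and no EGF, so the cells labelled ERBB2 and the vector cells were harvested after EGF withdrawal. Each group had 3 arrays that the labels call biological replicates. Whether replicates were infected separately is not in the labels, and p-values rest on the spread over these arrays, which may be technical. In bulk RNA, fewer cells of a type and less RNA per cell cannot be told apart.

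In background terms, selenoprotein P (SELENOP) is a secreted carrier that brings selenium to cells, and the receptor LRP8 takes it up. Glutathione peroxidases (GPX) use glutathione to reduce hydrogen peroxide or lipid peroxides, and thioredoxin reductase (TXNRD1) keeps thioredoxin reduced with NADPH. In liver, FOXO transcription factors drive SELENOP transcription, and in many cells the factor NRF2 drives TXNRD1 through antioxidant response elements.

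Values are MAS5 signals, a linear brightness that, judged by equal trimmed means, the authors scaled to 1 common level on all arrays, and no detection calls were used, so it is not known which low signals lie above background. Changes are differences of group means of log2(signal + 16), which understates the change of low signals, and were fitted with limma over 32768 probe sets and 9 arrays. Adjusted p-values are Benjamini-Hochberg values over all of these probe sets, and called means an adjusted p under 0.05. Median signals lay between 17.94 and 20.06 on arrays labelled ERBB2, 15.57 and 16.9 on EGF arrays and 19.85 and 20.18 on vector arrays. With arrays set to equal medians instead, the median change of all probe sets moved to 0.11 for EGF against vector, against -0.11 as deposited, and the share of higher among called probe sets was 78% in place of 44.8%. For the label ERBB2 against EGF that share was 23.7% in place of 48.7%, and for ERBB2 against vector 53.1% in place of 45.7%.

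The brightest probe set of the expressed gene went against its label. The brightest ERBB2 probe set averaged 98.8 ± 23.1 in cells labelled ERBB2, 104.1 ± 23.3 in EGF cells and 174 ± 48.0 in vector cells (SD, n = 3 each). A dimmer ERBB2 probe set, 210930_s_at, changed the other way, with a log2 change of 0.89 in cells labelled ERBB2 against vector (limma adjusted p = 0.008824). The insert and the probe positions were not compared here, so the cells are called labelled ERBB2 throughout. DUSP6, an ERK-induced phosphatase, averaged 963 ± 233 in cells labelled ERBB2, 2789 ± 219 in EGF cells and 9.42 ± 7.51 in vector cells. EGR1, an early response transcription factor, averaged 1009 ± 163 in cells labelled ERBB2, 2174 ± 35.6 in EGF cells and 144.8 ± 15.95 in vector cells. EGFR, the EGF receptor, averaged 975.3 ± 143 in cells labelled ERBB2, 1873 ± 144 in EGF cells and 1835 ± 153 in vector cells. That is its brightest probe set, 224999_at. With EGF against vector 201983_s_at (-0.23, limma adjusted p = 0.03824) and 201984_s_at (-0.50, limma adjusted p = 0.0005452) were lower. Its dimmer probe sets past the filter were not called in that comparison. The ACTB 5′/3′ signal ratio was 0.737 ± 0.051 on arrays labelled ERBB2, 0.444 ± 0.063 with EGF and 0.379 ± 0.055 on vector arrays, and the 18S rRNA 3′ control read 12590 ± 823, 2868 ± 673 and 3380 ± 1330 in the same order. All 8 mammary epithelial markers named by a probe set passed the filter on low signals, and in cells labelled ERBB2 against vector 3 were higher and 5 lower. KRT5 averaged 6227 ± 365 in cells labelled ERBB2, 8847 ± 1095 with EGF and 11860 ± 788 in vector cells, while EPCAM averaged 2357 ± 313, 1413 ± 51.5 and 1063 ± 89.7 in the same order. Their summed signal was 18690 to 20170 in cells labelled ERBB2, 21300 to 24180 with EGF and 23300 to 26330 in vector cells. Of 7 fibroblast markers 3 passed, and their list's summed signal was 1015 to 1344, 1172 to 1358 and 3100 to 3462 in the same order, most of it DCN, while COL3A1, LUM, PDGFRA and PDGFRB stayed under a mean of 16 in every group. The summed signal of 9 blood and endothelial markers was 509.8 to 612.1 in cells labelled ERBB2, 389.7 to 465.5 with EGF and 405.4 to 457.9 in vector cells. These differences move with the groups, and their part in the results below was not tested.

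The 250 bases upstream of the SELENOP start and of both TXNRD1 starts are shown because these are the selenoprotein genes here with the widest spread between groups past the filter, and because the regulators named above act at such elements. Sequences are RefSeq's on GRCh38.p14, 5′ to 3′ on the gene's strand, and capitals mark matches to a FOXO motif (TGTTTAC) or an antioxidant response element core (TGACNNNGC), both searched on either strand. SELENOP lies on the minus strand at chr5:42811893-42812142. The TXNRD1 stretches lie on the plus strand at chr12:104215529-104215778 and chr12:104286782-104287031.
SELENOP: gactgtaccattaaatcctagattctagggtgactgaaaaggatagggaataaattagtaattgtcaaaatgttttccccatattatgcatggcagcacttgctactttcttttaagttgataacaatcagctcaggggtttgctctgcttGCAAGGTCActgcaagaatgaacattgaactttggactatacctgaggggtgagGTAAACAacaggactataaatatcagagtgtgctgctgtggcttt
TXNRD1, upstream start: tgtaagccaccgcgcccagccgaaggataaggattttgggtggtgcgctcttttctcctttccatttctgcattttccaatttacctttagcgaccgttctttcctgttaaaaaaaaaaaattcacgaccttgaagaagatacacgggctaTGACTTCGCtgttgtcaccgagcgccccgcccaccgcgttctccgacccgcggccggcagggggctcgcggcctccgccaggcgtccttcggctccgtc
TXNRD1, downstream start: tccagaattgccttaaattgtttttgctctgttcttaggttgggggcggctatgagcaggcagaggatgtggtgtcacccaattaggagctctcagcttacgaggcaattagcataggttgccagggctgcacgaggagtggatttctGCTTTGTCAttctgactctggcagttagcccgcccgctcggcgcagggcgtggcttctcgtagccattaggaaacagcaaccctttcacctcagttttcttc
In SELENOP the FOXO motif stands reversed as GTAAACA, beginning 45 bases before the start, and a reversed response element core begins 99 bases before it. The TXNRD1 stretches each hold 1 response element core, beginning 99 bases before the upstream start and 102 bases before the downstream start. Of 35114 human promoter windows of this length, 2.98% held the FOXO motif and 10.9% the response element core. The table matched 8 of the 10 genes with 11 promoters. GPX2 held a response element core at 122 bases before its start, and the GPX1, GPX3, GPX4, SELENOH and SELENOW windows held neither motif. Among genes described further below, the GCLM window held a response element core. The LRP8, MSRB1, NQO1 and SEPHS1 windows held neither motif. A match describes these letters and does not show binding.

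SELENOP was nearly lost in cells labelled ERBB2 and was partly lost after 2 h of EGF. Its bright probe set (201427_s_at) read 75.55, 80.13 and 68.03 in cells labelled ERBB2, 1961, 1768 and 1792 with EGF, and 4662, 4867 and 5034 in vector cells. The 3 groups did not overlap, and the replicates within each lay close together. The mean in cells labelled ERBB2, 74.6 ± 6.11, was 1.54% of the vector mean of 4855 ± 186, a log2 change of -5.75 ± 0.08 (SE) and the largest fall among 13726 genes. With EGF the mean of 1841 ± 105 was 37.9% of the vector mean, a log2 change of -1.39 ± 0.08. Cells labelled ERBB2 had 4.05% of the EGF mean, a log2 change of -4.36 ± 0.08, again the largest fall among the genes. Equal array medians do not alter the order of groups.

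The other 2 SELENOP probe sets were dim. Probe set 231669_at read 1.12, 1.39 and 3.58 in cells labelled ERBB2, 28.61, 15.69 and 28.62 with EGF, and 38.55, 37.57 and 44.07 in vector cells, the same order of groups as the bright probe set. Probe set 229620_at read 10.58, 1.93 and 10.41 in cells labelled ERBB2, 4.45, 2.57 and 10.24 with EGF, and 29.54, 24.8 and 31.78 in vector cells. There the cells labelled ERBB2 and the EGF cells overlapped, at or below the added 16.

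**Figure D1:**
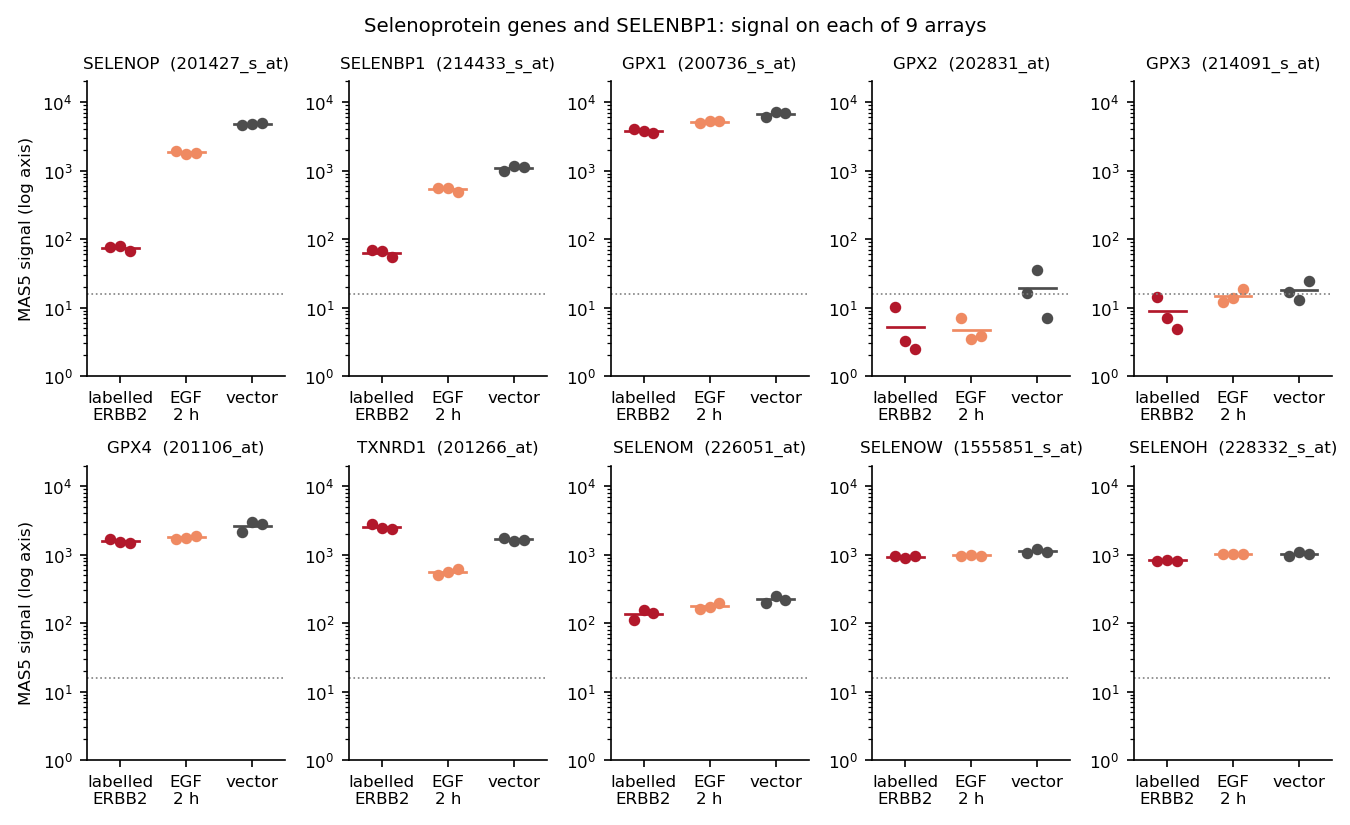
MAS5 signal (log axis) of the 10 genes on each of 9 arrays, with dots for arrays, bars for group means and a dotted line at 16, the value added before taking logs. SELENOP and SELENBP1 step down in both EGF cells and cells labelled ERBB2, TXNRD1 is lowest in EGF cells at 556 ± 60.3, and both GPX2 and GPX3 sit near or under 16.

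The receptor that binds SELENOP ran the other way. LRP8 (208433_s_at) read 372.1, 317.1 and 395.8 in cells labelled ERBB2, 290.1, 229.8 and 281.1 with EGF, and 62.62, 84.26 and 93.9 in vector cells. LRP8 was higher than in vector cells by a log2 change of 1.98 in cells labelled ERBB2 (limma adjusted p = 8.158e-10) and of 1.56 with EGF (limma adjusted p = 5.745e-08), in all 3 arrays each. Its other probe sets, 205282_at and 228955_at, gave 2.29 and 2.37 in cells labelled ERBB2. On 208433_s_at the difference between cells labelled ERBB2 and EGF cells, 0.42 (limma adjusted p = 0.03707), was lost under 8 of 18 alternative settings. In that comparison 205282_at was higher by 0.47 (limma adjusted p = 0.008504) and 228955_at by 0.60 (limma adjusted p = 0.001593). LRP2, the kidney receptor of SELENOP, averaged 19.8 ± 8.14 in cells labelled ERBB2, 10.4 ± 1.84 with EGF and 23.0 ± 11.8 in vector cells and was not called in any comparison.

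Of the 4 listed liver regulators of SELENOP, FOXO1 and FOXO3 passed the filter, and both fell in all 3 comparisons. FOXO1 read 179.9, 144.9 and 146.2 in cells labelled ERBB2, 316.2, 241.4 and 327.4 with EGF, and 722.1, 808.2 and 780.4 in vector cells. FOXO3 read 825.8, 871 and 764.7 in cells labelled ERBB2, 1027, 1064 and 1115 with EGF, and 2369, 2386 and 2398 in vector cells. On these brightest probe sets neither gene's groups overlapped, and the order of groups was that of SELENOP. On FOXO3 224889_at cells labelled ERBB2 (150.5 ± 34.4) and EGF cells (256.9 ± 68.7) overlapped. The dim FOXO1 228484_s_at averaged 12.8 in cells labelled ERBB2, 11.4 with EGF and 13.6 in vector cells. In cells labelled ERBB2 the log2 change against vector was -2.19 for FOXO1 (limma adjusted p = 2.214e-11) and -1.52 for FOXO3 (limma adjusted p = 4.85e-12). With EGF it was -1.35 for FOXO1 (limma adjusted p = 5.428e-08) and -1.15 for FOXO3 (limma adjusted p = 7.777e-10). FOXO activity is set largely by phosphorylation of the protein, which the arrays do not measure.

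SELENBP1, a selenium-binding protein that oxidizes methanethiol, had the group order of SELENOP with smaller changes. Its probe set (214433_s_at) read 68.82, 65.98 and 55.13 in cells labelled ERBB2, 548.7, 559.1 and 489.8 with EGF, and 994.9, 1168 and 1146 in vector cells. No group overlapped another. The mean in cells labelled ERBB2, 63.3 ± 7.23, was 5.74% of the vector mean of 1103 ± 94.2, a log2 change of -3.82 ± 0.11. The EGF mean of 532.5 ± 37.4 was 48.3% of the vector mean, a log2 change of -1.03 ± 0.11. Cells labelled ERBB2 had 11.9% of the EGF mean.

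The genes whose centred log2 signals over the 9 arrays lay nearest to SELENOP, out of 13725 genes, were SULT1E1, KRT15, MAOA, KRT14 and IGFBP6, with root mean square differences of 0.53 to 0.79. SULT1E1, an estrogen sulfotransferase, averaged 35.0 ± 14.4 in cells labelled ERBB2, 568.3 ± 44.5 with EGF and 1188 ± 185 in vector cells. KRT15, a basal keratin, averaged 650.8 ± 49.2 in cells labelled ERBB2, 7747 ± 397 with EGF and 12870 ± 221 in vector cells. For SELENBP1 the nearest were GLUL, ALDH3A1, AHNAK2, TIMP3 and KRT14, with differences of 0.12 to 0.30. GLUL, glutamine synthetase, averaged 702 ± 18.5 in cells labelled ERBB2, 5623 ± 331 with EGF and 10490 ± 746 in vector cells. KRT14, a basal keratin near to both, averaged 149 ± 9.66 in cells labelled ERBB2, 1758 ± 48.5 with EGF and 2640 ± 432 in vector cells. SELENBP1 itself stood seventh in nearness to SELENOP, and this is a description of group patterns shared by these arrays.

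Among the glutathione peroxidases, the bright GPX1 and GPX4 were lower in both cell groups than in vector cells, by far less than SELENOP. GPX1, the cytosolic enzyme that reduces hydrogen peroxide, read 4042, 3725 and 3490 in cells labelled ERBB2, 5017, 5235 and 5221 with EGF, and 6103, 7152 and 6920 in vector cells. Its 3 groups did not overlap. The log2 change in cells labelled ERBB2 against vector was -0.84 ± 0.07. With EGF GPX1 fell by 0.38 on the log2 scale against vector (limma adjusted p = 0.0004528), and the call was lost with equal array medians (-0.08, limma adjusted p = 0.5769). Cells labelled ERBB2 were lower than EGF cells by a log2 change of -0.46 (limma adjusted p = 7.829e-05), a call kept under all 18 alternatives.

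GPX4, which reduces lipid hydroperoxides in membranes and guards against ferroptosis, read 1702, 1525 and 1492 in cells labelled ERBB2, 1703, 1761 and 1896 with EGF, and 2124, 2982 and 2821 in vector cells. Vector cells stood above both others, which nearly touched at 1702 and 1703. The log2 change in cells labelled ERBB2 against vector was -0.73 ± 0.10. With EGF GPX4 fell by 0.55 on the log2 scale against vector (limma adjusted p = 0.00032), which was lost with equal array medians (-0.25, limma adjusted p = 0.1071). Cells labelled ERBB2 and EGF cells differed by -0.18 (limma adjusted p = 0.2152).

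The other 2 peroxidases were near the floor. GPX2, the gastrointestinal enzyme, had no probe set past the filter: 202831_at read 10.04, 3.23 and 2.52 in cells labelled ERBB2, 6.97, 3.42 and 3.78 with EGF, and 16.26, 35.3 and 7.15 in vector cells. Its second probe set, 239595_at, stayed under 16 on all 9 arrays. For GPX3, the secreted plasma enzyme, 214091_s_at read 14.47, 7 and 4.81 in cells labelled ERBB2, 12, 13.56 and 18.89 with EGF, and 16.71, 13.04 and 24.46 in vector cells. The groups overlapped in each comparison, and GPX3 was not called for EGF against vector (limma adjusted p = 0.7606) or for the label ERBB2 against EGF (limma adjusted p = 0.4402).

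TXNRD1 was higher in cells labelled ERBB2 than in vector cells, unlike the other 8 genes past the filter, and lower with EGF. Its bright probe set (201266_at) read 2759, 2417 and 2369 in cells labelled ERBB2, 495.7, 556 and 616.3 with EGF, and 1753, 1601 and 1660 in vector cells. No group overlapped another. The mean in cells labelled ERBB2, 2515 ± 213, was 150.5% of the vector mean of 1671 ± 77.0, a log2 change of 0.58 ± 0.09. With EGF the mean of 556 ± 60.3 was 33.3% of the vector mean, a log2 change of -1.57 ± 0.09 (limma adjusted p = 9.334e-11). Cells labelled ERBB2 were 4.52-fold above EGF cells, a log2 change of 2.15 ± 0.09 (limma adjusted p = 6.763e-13). These comparisons share arrays, and under 18 alternatives the change with EGF stayed between -1.64 and -1.27. A second TXNRD1 probe set, 1561080_at, did not pass the filter and read at most 21.91 on any array.

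**Figure D2:**
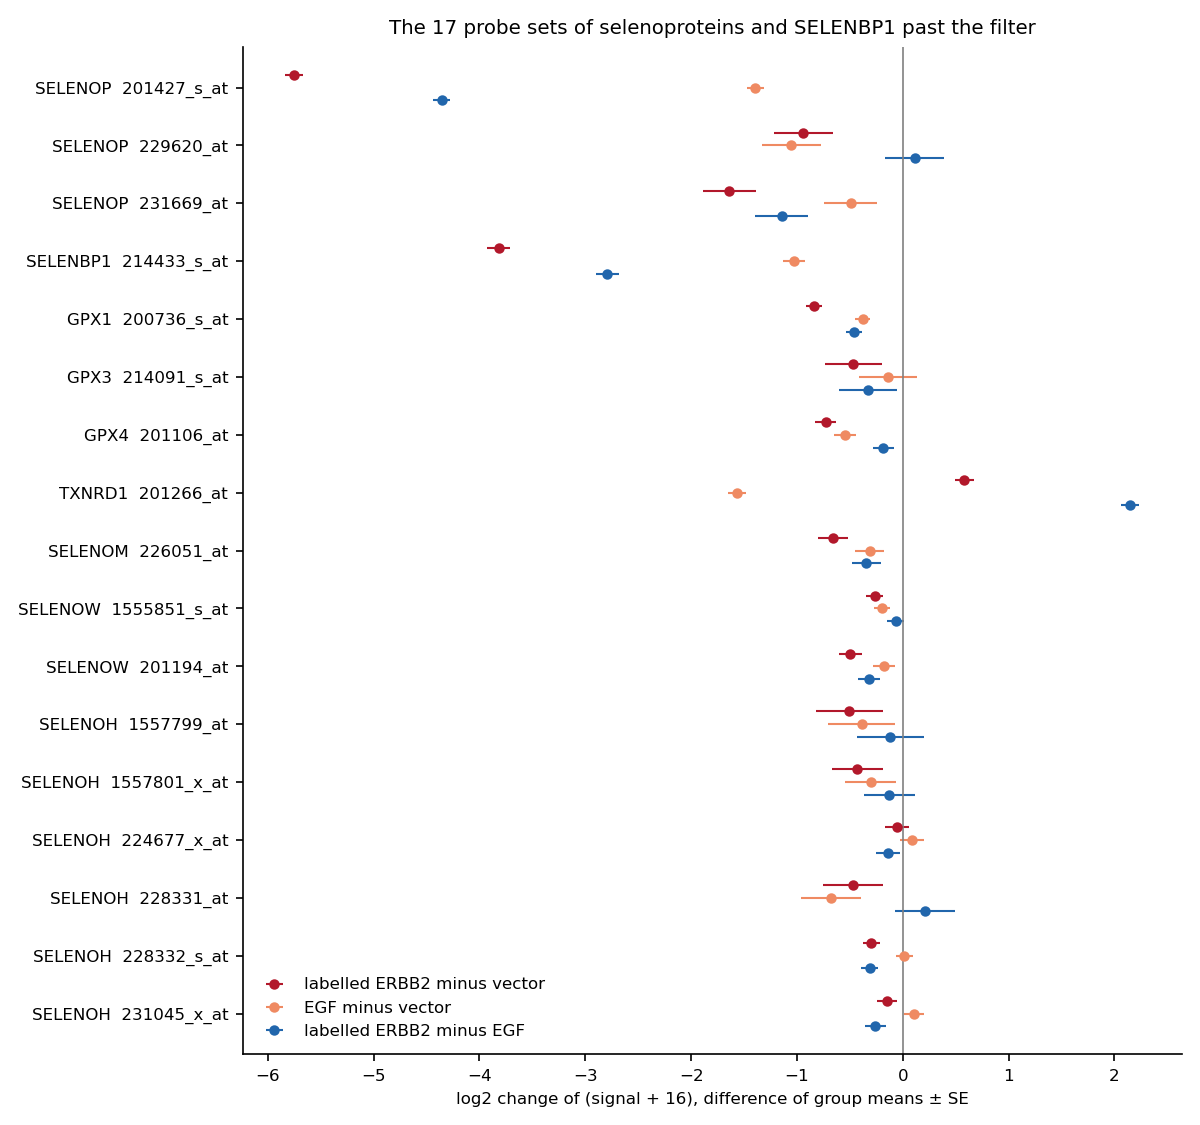
Log2 change of signal + 16 (x axis, difference of group means ± SE) for the 17 probe sets of these genes past the filter, in 3 comparisons, with 3 arrays a group. SELENOP 201427_s_at lies farthest left at -5.75, and TXNRD1 lies right of 0 for cells labelled ERBB2 against both other groups and left of 0 for EGF against vector.

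Regulators and targets of NRF2, taken as a list, changed in both directions beside TXNRD1. NFE2L2, which encodes NRF2, averaged 1122 ± 107 in cells labelled ERBB2, 1564 ± 63.9 with EGF and 2163 ± 64.2 in vector cells (201146_at). KEAP1 averaged 277.8 ± 19.0, 236 ± 22.7 and 362.4 ± 14.3 in the same order. NQO1 averaged 3842 ± 249, 1801 ± 148 and 2180 ± 162 in that order (210519_s_at), highest in cells labelled ERBB2. Of 15 genes of this list past the filter, 7 rose and 6 fell in cells labelled ERBB2 against vector, with a median log2 change of 0.10, where 20.8% of all genes rose and 25.0% fell and the median was -0.07. With EGF 1 rose and 10 fell, with a median of -0.46, where 17.2% of all genes rose and 18.9% fell and the median was -0.10. Between cells labelled ERBB2 and EGF cells 8 were higher and 4 lower, with a median of 0.51, where 12.8% of all genes were higher and 28.8% were called in either direction, with a median of 0.01.

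GCLM, a subunit of the enzyme that begins glutathione synthesis, read 1292, 1294 and 1196 in cells labelled ERBB2, 434.4, 512.8 and 440.3 with EGF, and 457.1, 385.4 and 449.4 in vector cells. It rose in cells labelled ERBB2 (1.52, limma adjusted p = 1.369e-10) and overlapped between EGF and vector cells (0.10, limma adjusted p = 0.4865). SLC7A11, the cystine importer, averaged 601.9 ± 61.9 in cells labelled ERBB2, 187.6 ± 33.4 with EGF and 150.3 ± 9.46 in vector cells, a rise of 1.89 in cells labelled ERBB2 against vector (limma adjusted p = 3.911e-10). SRXN1, which repairs peroxiredoxins, rose by 1.24 in cells labelled ERBB2 (limma adjusted p = 3.546e-09). All 3 were higher in cells labelled ERBB2, as TXNRD1 was, and all 3 also stand in the glutathione or thioredoxin list.

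ABCC2, an exporter of glutathione conjugates, had the group order of TXNRD1: 266, 279.5 and 251.3 in cells labelled ERBB2, 74.46, 51.85 and 83.77 with EGF, and 198.3, 168.5 and 127.6 in vector cells. It rose in cells labelled ERBB2 (0.66, limma adjusted p = 0.002905) and fell with EGF (-1.07, limma adjusted p = 4.19e-05). HMOX1, heme oxygenase, averaged 44.4 ± 17.1 in cells labelled ERBB2, 8.74 ± 5.58 with EGF and 38.9 ± 2.92 in vector cells, and its fall with EGF was -1.18 (limma adjusted p = 0.001466). AKR1C1, an aldo-keto reductase, went the other way in cells labelled ERBB2 with 3161 ± 607, against 3393 ± 131 with EGF and 7200 ± 146 in vector cells. Its probe set 216594_x_at averaged 3035 ± 492, 3227 ± 59.5 and 6584 ± 157 in the same order. The dimmer 217626_at averaged 137.6 ± 23.4, 34.4 ± 4.16 and 151.8 ± 5.34, lowest with EGF. Probes for AKR1C1 can also catch its near-identical family members, so its value is uncertain. OSGIN1 fell with EGF (-0.93, limma adjusted p = 0.04015), a call lost under 9 of 17 alternatives.

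**Figure D3:**
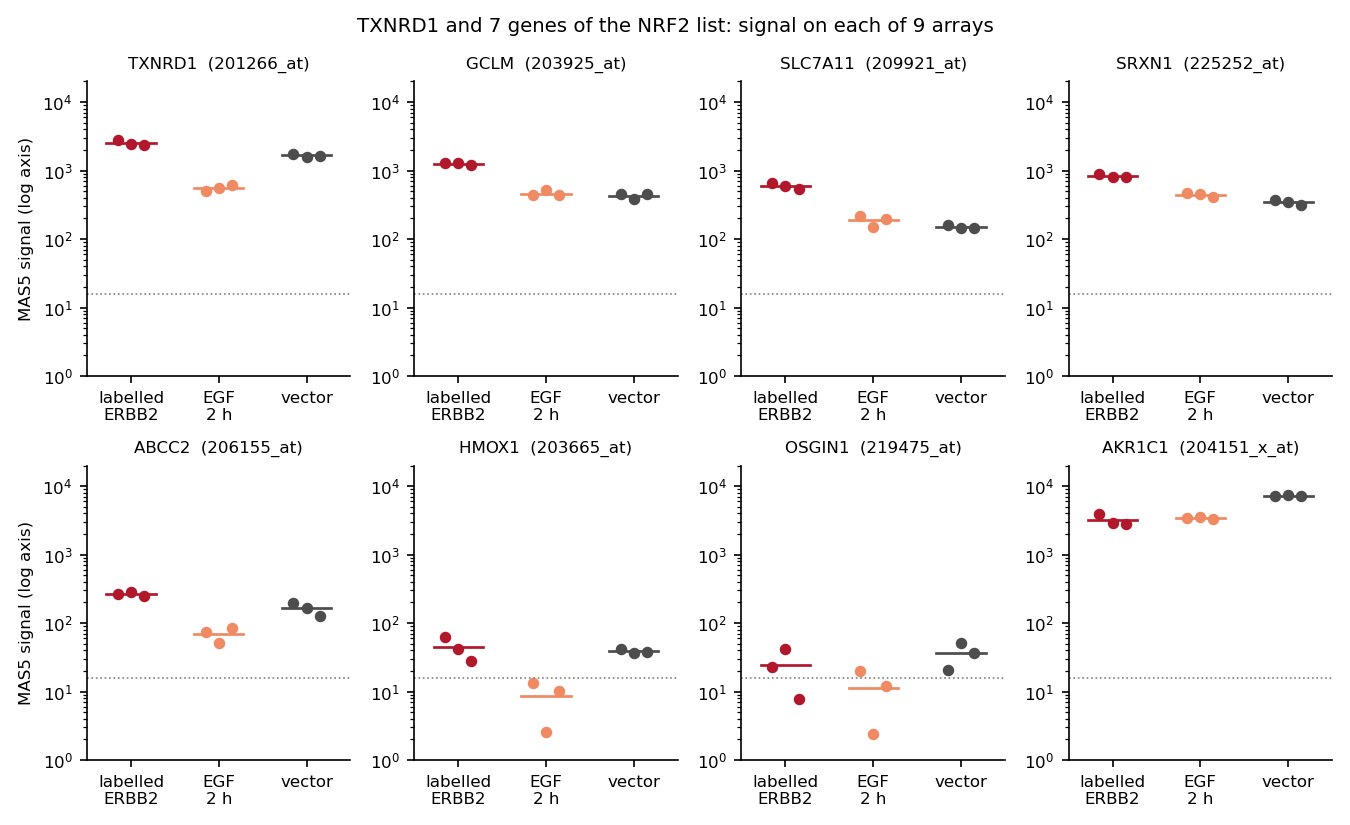
MAS5 signal (log axis) of TXNRD1 and of 7 genes of the NRF2 list named by a rule of size of change, on each of 9 arrays, with bars for group means and a dotted line at 16. ABCC2 and HMOX1 are lowest in EGF cells, as TXNRD1 is, GCLM, SLC7A11 and SRXN1 are highest in cells labelled ERBB2, and AKR1C1 is highest in vector cells at 7200 ± 146.

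The list of glutathione genes also holds CHAC1 and GGT1, which break glutathione down, and GPX8, of the peroxidase family. Of 9 genes past the filter, 4 rose and 2 fell in cells labelled ERBB2 against vector, where 45.8% of all genes were called. Their median was 0.33. With EGF 2 fell and 7 were not called, where 36.1% were called. Between cells labelled ERBB2 and EGF cells 5 were higher and 1 lower, where 28.8% were called. CHAC1, among these 5, averaged 20.6 ± 6.42 in cells labelled ERBB2 and 3.75 ± 2.98 with EGF, near the floor. GSS, glutathione synthetase, averaged 451.8 ± 27.97 in cells labelled ERBB2, 220.9 ± 55.5 with EGF and 245.1 ± 15.9 in vector cells. GSR, which regenerates reduced glutathione, was lower in cells labelled ERBB2 at 197.7 ± 35.3, against 415.9 ± 5.48 with EGF and 541 ± 45.7 in vector cells, a log2 change of -1.39 against vector (limma adjusted p = 8.22e-09). SLC3A2, the partner chain of SLC7A11, fell with EGF by 0.46 on the log2 scale, a call lost with equal array medians (-0.16, limma adjusted p = 0.2941).

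Of 14 thioredoxin and peroxiredoxin genes, 5 rose and 6 fell in cells labelled ERBB2 against vector, 3 rose and 4 fell with EGF, and 3 were higher and 4 lower in cells labelled ERBB2 than in EGF cells, where 45.8%, 36.1% and 28.8% of all genes were called. Their medians were -0.03, 0.00 and 0.02. TXNIP, the inhibitor of the thioredoxin that TXNRD1 reduces, read 322.2, 304.2 and 314.6 in cells labelled ERBB2, 1408, 1340 and 1346 with EGF, and 3772, 3996 and 3958 in vector cells. Its fall against vector was -3.57 in cells labelled ERBB2 (limma adjusted p = 8.838e-18) and -1.51 with EGF (limma adjusted p = 1.082e-11), with no overlap of groups. MSRB2, a methionine sulfoxide reductase without selenocysteine, averaged 344 ± 34.2 in cells labelled ERBB2, 622 ± 62.3 with EGF and 1200 ± 88.7 in vector cells. GLRX, glutaredoxin, averaged 1144 ± 153 in cells labelled ERBB2, 575.2 ± 218 with EGF and 360 ± 38.3 in vector cells. Its rise with EGF was lost under 6 of 18 alternatives, and the EGF and vector arrays overlapped. Its other probe set, 209276_s_at, was not called with EGF against vector (-0.14, limma adjusted p = 0.4154).

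SELENOM, SELENOW and SELENOH had changes of less than 1 log2 unit. SELENOM, an endoplasmic reticulum protein, read 111, 154.3 and 141.4 in cells labelled ERBB2, 160.6, 169.8 and 196 with EGF, and 195.4, 252.5 and 219.4 in vector cells. Cells labelled ERBB2 lay below both others, while the EGF and vector cells overlapped at 196 and 195.4. The log2 change was -0.66 ± 0.14 in cells labelled ERBB2 against vector, -0.31 with EGF against vector (limma adjusted p = 0.1046) and -0.34 in cells labelled ERBB2 against EGF (limma adjusted p = 0.08538).

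SELENOW, a small protein with a thioredoxin-like fold, had 2 bright probe sets. Probe set 1555851_s_at read 950.5, 897.7 and 940 in cells labelled ERBB2, 954.6, 1001 and 969.7 with EGF, and 1054, 1203 and 1108 in vector cells. Probe set 201194_at read 495.2, 486.4 and 392.4 in cells labelled ERBB2, 609.1, 498.7 and 615.9 with EGF, and 614.2, 668.8 and 664.3 in vector cells. Vector cells were highest in mean on both. For cells labelled ERBB2 against vector the changes were -0.27 ± 0.08 and -0.50 ± 0.11. With EGF neither was called, at -0.20 (limma adjusted p = 0.06791) and -0.18 (limma adjusted p = 0.2405). For the label ERBB2 against EGF 201194_at was called at -0.32 (limma adjusted p = 0.03488), which was lost without ERBB2 replicate 3 (-0.21, limma adjusted p = 0.1921), EGF replicate 1 (-0.27, limma adjusted p = 0.1301) or EGF replicate 3 (-0.27, limma adjusted p = 0.1481).

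SELENOH, a nuclear redox protein, had 6 probe sets past the filter. The brightest, 228332_s_at, read 813.2, 841.8 and 814.4 in cells labelled ERBB2, 1035, 1033 and 1009 with EGF, and 941.9, 1075 and 1031 in vector cells. Cells labelled ERBB2 lay below both others, which overlapped. The change was -0.30 ± 0.08 in cells labelled ERBB2 against vector, 0.02 with EGF (limma adjusted p = 0.9087) and -0.31 in cells labelled ERBB2 against EGF (limma adjusted p = 0.005901). The other bright probe sets, 224677_x_at and 231045_x_at, changed by -0.06 and -0.15 in cells labelled ERBB2 against vector and were not called in any comparison. The remaining 3 read at most 45.29 on any array.

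Over the 17 probe sets past the filter, 1 was higher and 10 lower in cells labelled ERBB2 against vector, where 38.7% of all probe sets were called. With EGF 6 were lower and 11 were not called, where 28.8% of all were called. Between cells labelled ERBB2 and EGF cells 1 was higher and 6 lower, where 23.8% were called. Groups did not overlap for 13, 9 and 11 of the 17 in these comparisons, against 47.0%, 42.2% and 37.9% of all probe sets. The median changes were -0.50, -0.38 and -0.26. By gene, 8 of 9 were called in cells labelled ERBB2 against vector, 5 with EGF and 5 between cells labelled ERBB2 and EGF cells, where 45.8%, 36.1% and 28.8% of all genes were called. Nothing is read from these counts, since the genes were chosen with the results known and several share a gene. The 4 probe sets that did not pass were both of GPX2 and 1 each of GPX3 and TXNRD1.

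Selenoproteins outside this set changed in both directions. Of 16 listed, 13 were named by a probe set and 11 passed the filter. In cells labelled ERBB2 against vector 5 rose and 2 fell, with a median of 0.08, where 45.8% of all genes were called. With EGF 3 rose and 1 fell, with a median of 0.11, where 36.1% were called, and with equal array medians the number called was 7. Between cells labelled ERBB2 and EGF cells 3 were higher and 2 lower, with a median of 0.22, where 28.8% were called, and with equal array medians the number called was 3. MSRB1, a methionine sulfoxide reductase, read 161.7, 160.2 and 156.1 in cells labelled ERBB2, 130.7, 179.2 and 186.6 with EGF, and 437.1, 525.1 and 429.3 in vector cells. It fell by 1.45 on the log2 scale in cells labelled ERBB2 (limma adjusted p = 2.39e-08) and by 1.41 with EGF (limma adjusted p = 7.84e-08), and the cells labelled ERBB2 and the EGF cells overlapped.

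SELENOS, an endoplasmic reticulum protein of the degradation pathway, rose in both: 1325, 1186 and 1172 in cells labelled ERBB2, 1234, 1184 and 1272 with EGF, against 735, 731.9 and 737.9 in vector cells. Its log2 change was 0.73 in cells labelled ERBB2 (limma adjusted p = 2.708e-07) and 0.73 with EGF (limma adjusted p = 5.399e-07). SELENOI, which makes phosphatidylethanolamine, rose by 0.92 in cells labelled ERBB2 (limma adjusted p = 1.501e-05) and by 0.59 with EGF (limma adjusted p = 0.002514). SELENOF, a protein of the endoplasmic reticulum, averaged 1538 ± 35.6 in cells labelled ERBB2, 1968 ± 106 with EGF and 1512 ± 83.3 in vector cells, highest with EGF.

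SELENOK, a partner of SELENOS, averaged 554.1 ± 40.8 in cells labelled ERBB2, 376.6 ± 35.3 with EGF and 400.2 ± 9.16 in vector cells. SEPHS2, the selenoprotein that makes the selenium donor for selenocysteine, was lower in cells labelled ERBB2 with 392.3, 411 and 425.8, against 575.3, 682.1 and 753.9 with EGF and 513.9, 610.4 and 574.6 in vector cells. Its log2 change was -0.45 in cells labelled ERBB2 against vector (limma adjusted p = 0.001625) and -0.68 against EGF (limma adjusted p = 5.538e-05). TXNRD2, the mitochondrial thioredoxin reductase, averaged 154.2 ± 23.0 in cells labelled ERBB2, 107.8 ± 20.9 with EGF and 98.2 ± 16.2 in vector cells, and SELENOT averaged 1119 ± 108, 857.6 ± 33.9 and 830.5 ± 42.6 in the same order. The higher SELENOT in cells labelled ERBB2 than in EGF cells was lost with equal array medians (0.17, limma adjusted p = 0.2439). A dimmer SELENOT probe set, 225561_at, averaged 109.6 ± 15.1, 141.1 ± 10.9 and 97.25 ± 26.65 in that order of groups, highest with EGF.

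**Figure D4:**
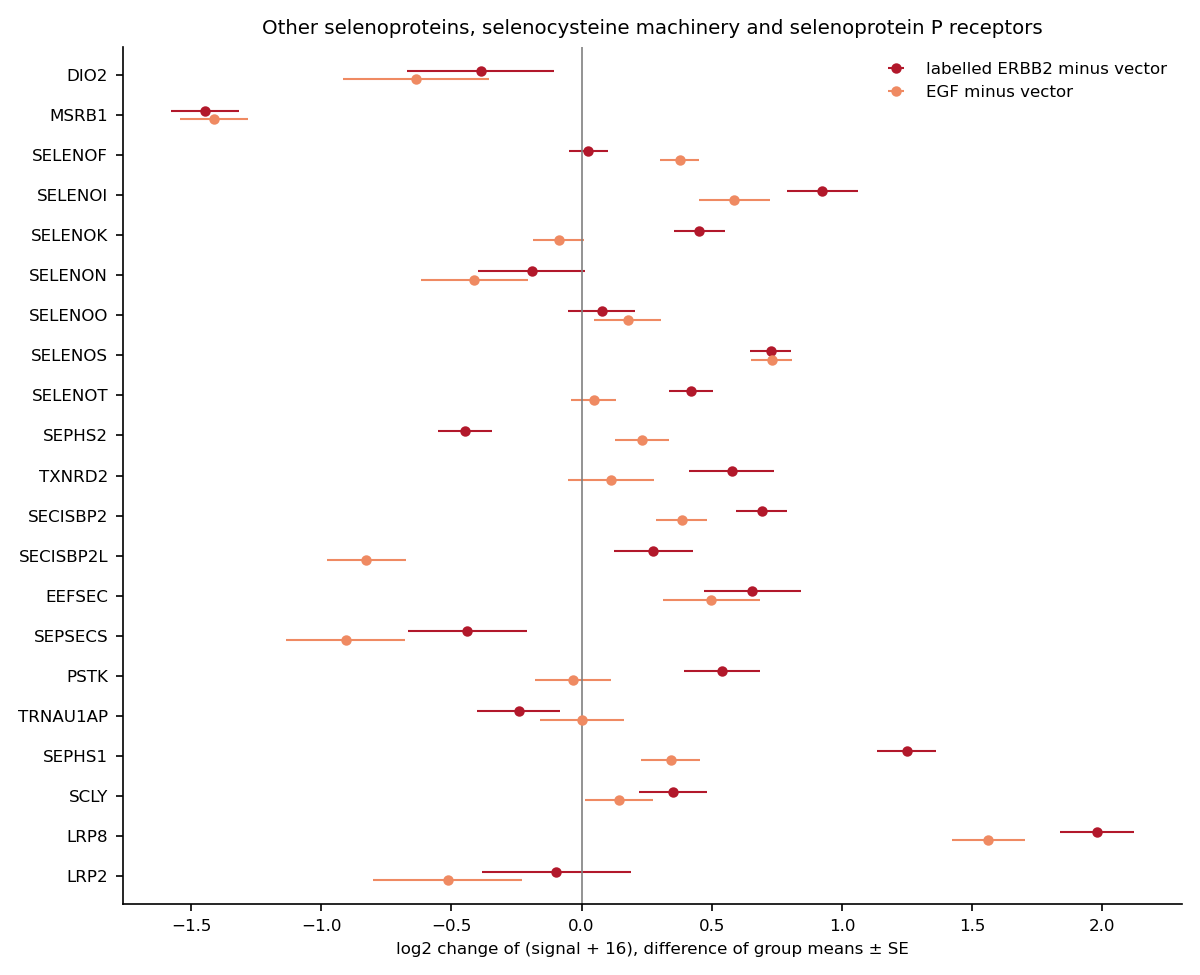
Log2 change of signal + 16 against vector (x axis, difference of group means ± SE, 3 arrays a group) for other selenoproteins, selenocysteine machinery and receptors of selenoprotein P, by their brightest probe set. MSRB1 lies at -1.45 in cells labelled ERBB2 and -1.41 with EGF, and LRP8 lies farthest right, at 1.98 for cells labelled ERBB2 and 1.56 for EGF cells.

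All 8 listed genes of the machinery that makes, inserts or recycles selenocysteine passed the filter. Among them is SCLY, which breaks selenocysteine down, while SEPHS2 is counted with the selenoproteins above. Of the 8 genes, 5 rose in cells labelled ERBB2 against vector and 3 were not called, where 20.8% of all genes rose. Their median was 0.45, against -0.07 over all genes, and without vector replicate 3 the number called was 3. With EGF 2 rose and 2 fell, with a median of 0.07, where 36.1% of all genes were called and the median was -0.10. Against EGF cells 4 were higher in cells labelled ERBB2 and 4 were not called, where 12.8% of all genes were higher. With equal array medians the number called was 2. The 4 include SECISBP2L by 212451_at (1.10, limma adjusted p = 1.648e-05). Its other probe set, 212450_at, was lower in that comparison (-0.98, limma adjusted p = 0.000393). SEPHS1, a SEPHS2 relative without selenocysteine, read 481.3, 578.6 and 497.1 in cells labelled ERBB2, 237.9, 276.3 and 294.7 with EGF, and 225.4, 197.3 and 203.7 in vector cells. It rose by 1.25 in cells labelled ERBB2 (limma adjusted p = 2.324e-08), and its rise of 0.34 with EGF (limma adjusted p = 0.02698) was lost under 5 of 18 alternatives.

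SECISBP2, which binds the selenocysteine insertion element of the mRNA, averaged 405.3 ± 11.3 in cells labelled ERBB2, 324.3 ± 4.15 with EGF and 244.9 ± 12.4 in vector cells. It rose by 0.69 in cells labelled ERBB2 (limma adjusted p = 8.959e-06) and by 0.38 with EGF (limma adjusted p = 0.00518). EEFSEC, the elongation factor for selenocysteine, rose by 0.66 in cells labelled ERBB2 (limma adjusted p = 0.007976), a call lost without vector replicate 3 (0.51, limma adjusted p = 0.05322). PSTK, a kinase that primes the selenocysteine tRNA, rose by 0.54 in cells labelled ERBB2 (limma adjusted p = 0.00531). SECISBP2L, a relative of SECISBP2, had probe sets that disagreed in cells labelled ERBB2 against vector, at 0.28 for 212451_at and -1.30 for 212450_at, so its direction is not settled. SEPSECS, which completes selenocysteine on its tRNA, fell with EGF (-0.91, limma adjusted p = 0.004933) to 24.9 ± 9.54, against 59.3 ± 7.35 in vector cells.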

How the data were processed

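RNA of 9 MCF10A cultures was hybridised to 1-colour Affymetrix arrays. The deposited values are linear signal intensity per probe set, made by the authors with MAS5 per the submitters' processing notes, with 1 scaling level on all arrays, as judged from the values. The settings of MAS5 are not stated there. The number of arrays limits the precision. Of the probe sets, 41097 name a single gene in the platform annotation, 1801 several and 11777 none, and 41043 of the first are in the RefSeq table. The 62 control probe sets and those whose mean log2 value lay below the 40th percentile were left out, which left 32768 probe sets and 13726 genes. Values were log2(signal + 16), fitted in 1 model over 9 arrays with limma 3.58.1 (lmFit and eBayes with trend) in R 4.3.3, tested on simulated data. A gene stands by its brightest probe set. No exact permutation test was used, since 3 arrays against 3 cannot go below 0.1. Groups came from the labels.

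The genes and lists were chosen with earlier results of these data known. Named were all 10 genes, up to 4 called genes a list and comparison by size of change (or else 2), the 5 genes nearest SELENOP and SELENBP1 in pattern, and ERBB2, EGFR, DUSP6 and EGR1. A few others, among them LRP2, CHAC1, NFE2L2, KEAP1 and NQO1, were named outside this rule. Same-numbered arrays did not deviate together (correlations -0.03 to 0.019), so numbers were not used as pairs. Alternatives were other pseudocounts, filters, scalings, variance settings, group subsets, a replicate block and each array left out.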

Additional observations from a re-analysis of the deposited data

How the results depend on the processing

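Over 213 results for single probe sets and 3801 alternative values, 0 reversed, 3600 kept their side of the threshold, 115 lost it, 37 gained it and 49 without a call moved. With equal array medians, 12 in place of 7 probe sets of the 10 genes were called for the label ERBB2 against EGF, 7 in place of 4 other selenoproteins for EGF against vector, 3 in place of 5 other selenoproteins and 2 in place of 4 selenocysteine machinery genes for the label ERBB2 against EGF; the scaling itself shifts these medians. With every probe set counted, selenocysteine machinery gave 11 called probe sets in place of 5 genes for the label ERBB2 against vector and 8 in place of 4 for EGF against vector, since it counts more items. Leaving out 1 array gave 3 to 5 called machinery genes for the label ERBB2 against vector, the lowest without vector replicate 3. Leaving out 1 array gave 10 to 11, 5 to 7 and 6 to 8 called probe sets of the 10 genes for the label ERBB2 against vector, EGF against vector and the label ERBB2 against EGF. With a replicate block, 11, 6 and 7 probe sets of the 10 genes were called, as without it, and machinery genes called were 4, 5 and 4; whether the numbers mark shared batches is not given. Signals under about 16 carry little order.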

Other observations

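Further genes of superoxide and lipid peroxide handling also changed. Of 4 superoxide dismutase and catalase genes 3 fell in cells labelled ERBB2 against vector and 1 was not called, where 25.0% of all genes fell. CAT, which breaks down hydrogen peroxide, averaged 977.2 ± 78.9 in cells labelled ERBB2, 971.8 ± 55.1 with EGF and 1667 ± 44.6 in vector cells. SOD2, the mitochondrial superoxide dismutase, fell by 1.06 on the log2 scale in cells labelled ERBB2 against vector. Of 7 lipid peroxidation genes past the filter 3 rose and 1 fell in cells labelled ERBB2, where 45.8% of all genes were called. With EGF 3 rose and 4 were not called, where 36.1% were called. The list mixes genes that promote lipid peroxidation with genes that counter it, such as GCH1 and DHODH. Those that rose were GCH1 (1.37), DHODH (1.13) and ACSL4 (0.29) in cells labelled ERBB2. With EGF the same genes rose, by 0.96, 0.87 and 1.14 in this order. DHODH was dim, at 26.2 ± 12.3 in vector cells. Its other probe sets, 213631_x_at and 217647_at, were not called with EGF against vector (limma adjusted p = 0.08732 and 0.4969). ALOX15B, a lipoxygenase, averaged 135.7 ± 19.3 in cells labelled ERBB2, 462 ± 39.3 with EGF and 544.1 ± 64 in vector cells, a fall of 1.89 on the log2 scale in cells labelled ERBB2 against vector. ACSL4, which activates polyunsaturated fatty acids for phospholipids, averaged 267.3 ± 17.9 in cells labelled ERBB2, 495.7 ± 42.7 with EGF and 215.6 ± 9.99 in vector cells, highest with EGF.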
